A study of Mus musculus with 6 samples.

Results

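The genes described here are 10 that natural killer (NK) cells and innate-like T cells use: Eomes, Tbx21, Il2rb, Nkg7, Klrd1, Cd160, Gzma, Gzmb, Ccl5 and Ctsw. Members were found by their symbol in the annotation of the array, which named 10 probes for 9 of the 10 genes, out of 45281 probes and 19057 named genes in all. Expression of Gzma, the gene of granzyme A, was not analysed here. Of the 9 genes with a probe, 5 (Nkg7, Klrd1, Cd160, Ccl5 and Ctsw) were detected on every array, 1 (Il2rb) was detected on 1 array, and 3 (Eomes, Tbx21 and Gzmb) were detected on 0 arrays.

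NK cells and innate-like T cells are lymphocytes that respond fast, with a set of effector genes already expressed before they meet a target. The T-box transcription factors encoded by Eomes and Tbx21 direct this programme, and interleukin 15, received through the chain that Il2rb encodes, keeps the cells alive. Their granules hold granzymes and other proteases, and their chemokines draw further cells. In the thymus such cells are a small minority beside the conventional T cell progenitors, and memory-like CD8 T cells use the same genes.

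Illumina bead arrays for the mouse, on which many beads with the same oligonucleotide give 1 signal per probe, measured the RNA. The cells were thymic lymphocytes, freed by mechanical means with no sort named, from C57/bl6-129sv animals of 8 to 12 weeks. The knockout group was 3 CD4-Cre/Kap1flox mice, in which KAP1 was deleted in the T lineage, and the control group was 3 wt/Kap1flox littermates, so that both groups carry the Kap1flox allele. The comparison asks which transcripts differ when T cell progenitors lose KAP1, a corepressor that zinc finger proteins bring to chromatin. The CD4 promoter that drives this Cre switches on in CD4 CD8 double-positive thymocytes, a stage that NK cells do not pass through. The labels do not say which exons are deleted or whether the controls carried Cre. Each array was taken as 1 mouse. In bulk RNA, fewer or more cells of a type and less or more RNA per cell cannot be told apart.

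Trim28, the gene of KAP1, had log2 signals of 10.83, 11.01 and 10.23 in knockout replicates 1, 2 and 3, and of 12.39, 12.25 and 12.59 in control replicates 4, 5 and 6. The groups did not overlap, and the log2 difference of -1.72 ± 0.26 (SE, n = 3 per group) did not pass the threshold in the fit over all probes (limma adjusted p = 0.23). Developing thymocyte markers were detected for 10 of the 11 genes with a probe, Cd8a being the one detected on 0 arrays, while its partner gene Cd8b1 was detected. Between 13973 and 15182 probes were detected per array at a detection p under 0.01, and mean signals ran from 340.1 to 678.5 before normalization. Knockout replicate 2 stood apart on the members, as given below, and it was the highest of the 6 arrays for 26.6% of all 8200 genes tested, against 8.15% to 17.9% for the other arrays.

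The transcription factor genes of the programme gave no signal above background in either group. A probe at background does not show that its gene was unexpressed, since the thymocyte marker Cd8a was also detected on 0 arrays. Eomes had 2 probes, and both were detected on 0 of 6 arrays. The first, ILMN_1251446, gave raw signals of 96.2, 95.1 and 115.5 in knockout replicates 1, 2 and 3 and of 125.2, 108.6 and 94.7 in control replicates 4, 5 and 6, all below the lowest detected signal on the same array. The second, ILMN_2570496, lay between 0.691 and 0.808 of that lowest detected signal. Tbx21, which encodes T-bet, had raw signals of 118.1, 112.4 and 112.6 in the knockout and of 133.1, 114.0 and 113.5 in the controls. Its smallest detection p was 0.0406, on control replicate 4. Both groups were at background, so a difference between them has no reading for either gene. Of all probes on the array, 61.2% were likewise detected on 0 arrays, against 4 of the 10 member probes.

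The same held for Gzmb, the gene of granzyme B, a serine protease that induces death of target cells. Its raw signals were 122.4, 103.9 and 97.5 in the knockout and 101.2, 110.5 and 109.3 in the controls, with detection p values between 0.166 and 0.942. Il2rb, which encodes the chain shared by the receptors of interleukins 2 and 15, gave 177.4, 121.8 and 105.2 in knockout replicates 1, 2 and 3 and 135.9, 111.9 and 109.8 in control replicates 4, 5 and 6. It passed the detection limit on knockout replicate 1 alone, by a factor of 1.07 over the lowest detected signal there. At a detection p under 0.05, chosen after seeing the data, it was detected on 3 arrays, 2 knockout and 1 control, and its log2 difference was then 0.21 ± 0.34 (SE, n = 3 per group; limma adjusted p = 0.999).

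**Figure D1:**
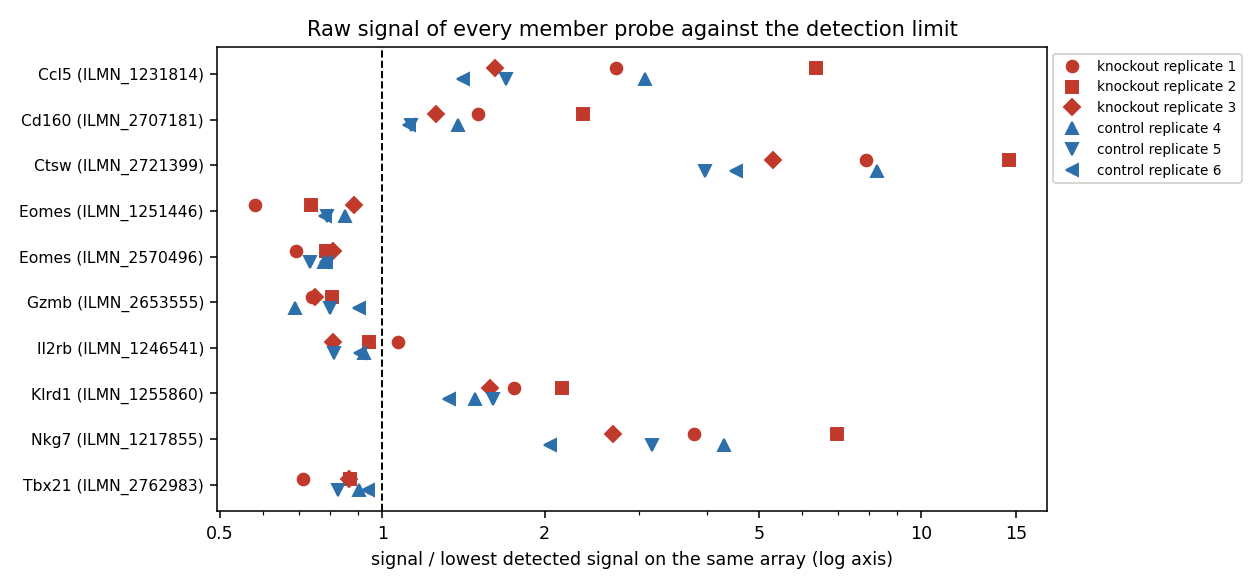
Raw signal of each of the 10 member probes divided by the lowest detected signal on the same array (log axis, dashed line at 1), with 1 point per array, knockout in red and control in blue. Every point of Ccl5, Cd160, Ctsw, Klrd1 and Nkg7 lies above 1, every point of Eomes, Gzmb and Tbx21 lies below 1, and Il2rb exceeds 1 on knockout replicate 1 alone, at 1.07.

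The 5 detected members each had a higher mean in the knockout, by 0.40 to 0.76 on the log2 scale, and none passed the test. These are Ccl5, Cd160, Ctsw, Nkg7 and Klrd1, which encode a chemokine, a receptor, a protease, a granule membrane protein and a lectin receptor. In the limma fit over 14651 probes, 0 of the 5 member probes passed an adjusted p of 0.05, against 4 probes or 0.0273% of all, and 0 of the 5 had an unadjusted p under 0.05, against 3.54% of all probes. By gene, 3.5% of all tested genes had such an unadjusted p. The members' median log2 difference was 0.62, against -0.01 for all 8200 genes, of which 47.9% were higher in the knockout. With knockout replicate 2 left out, 4 of the 5 members were higher and the median was 0.20, against 0.02 for all genes, of which 53.2% were then higher.

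Klrd1 was the detected member whose groups did not overlap. It encodes CD94, a lectin-like receptor chain that pairs with NKG2 proteins and recognises a nonclassical MHC class I molecule. Its log2 signal was 7.07, 7.65 and 7.01 in knockout replicates 1, 2 and 3 and 6.78, 6.92 and 6.82 in control replicates 4, 5 and 6. Every knockout array lay above every control array, though knockout replicate 3 exceeded control replicate 5 by a narrow margin, and with median scaling the groups overlapped. The means were 7.25 ± 0.35 and 6.84 ± 0.07 (SD, n = 3 each), a log2 difference of 0.40 (SE 0.24, 95% interval -0.13 to 0.94; limma adjusted p = 0.998). Without knockout replicate 2 the difference was 0.20. Groups failed to overlap for 1 of the 5 detected members and for 8% of all genes, or 4.61% when only genes higher in the knockout are counted.

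Cd160 encodes a receptor of the immunoglobulin superfamily that binds the herpesvirus entry mediator, the product of Tnfrsf14. Its log2 signal was 6.70, 7.82 and 6.27 in knockout replicates 1, 2 and 3 and 6.60, 5.90 and 6.15 in control replicates 4, 5 and 6. The groups overlapped, because control replicate 4 lay above knockout replicate 3. The difference was 0.71 (SE 0.39, 95% interval -0.19 to 1.61; limma adjusted p = 0.998), or 1.64-fold, and it was 0.27 without knockout replicate 2.

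Nkg7 encodes a membrane protein of cytotoxic granules that is needed for their release. Its log2 signal was 8.53, 9.75 and 8.24 in knockout replicates 1, 2 and 3 and 8.82, 8.34 and 8.06 in control replicates 4, 5 and 6. Knockout replicate 2 was the highest array and control replicate 4 the next, above both other knockout arrays. The difference was 0.44 (SE 0.40, 95% interval -0.47 to 1.34; limma adjusted p = 0.998). It turned to -0.02 when knockout replicate 2 was left out, was 0.73 in the absence of knockout replicate 3 and was 0.26 in that of control replicate 6.

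Ctsw encodes cathepsin W, a cysteine protease found mainly in cytotoxic lymphocytes. Its log2 signal was 9.73, 10.87 and 9.52 in knockout replicates 1, 2 and 3 and 9.89, 8.75 and 9.61 in control replicates 4, 5 and 6. Here knockout replicate 3 lay below 2 of the control arrays, and control replicate 5 was the lowest of all. The difference was 0.62 (SE 0.42, 95% interval -0.33 to 1.57; limma adjusted p = 0.998). Leaving out knockout replicate 2 gave 0.21, and leaving out control replicate 5 gave 0.29.

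Ccl5 encodes a chemokine that attracts T cells and monocytes and that memory CD8 T cells and NK cells make in quantity. Its log2 signal was 7.95, 9.61 and 7.07 in knockout replicates 1, 2 and 3 and 8.24, 7.06 and 7.06 in control replicates 4, 5 and 6. Knockout replicate 3 and control replicates 5 and 6 were nearly level, and control replicate 4 lay above knockout replicate 1. The difference was the largest of the 5 members at 0.76, with the widest error (SE 0.61, 95% interval -0.62 to 2.14; limma adjusted p = 0.998). As a fold this is 1.69, with an interval from 0.649 to 4.42. The value was 0.06 when knockout replicate 2 was left out, and it was 1.33 with knockout replicate 3 left out and 1.15 with control replicate 4 left out.

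**Figure D2:**
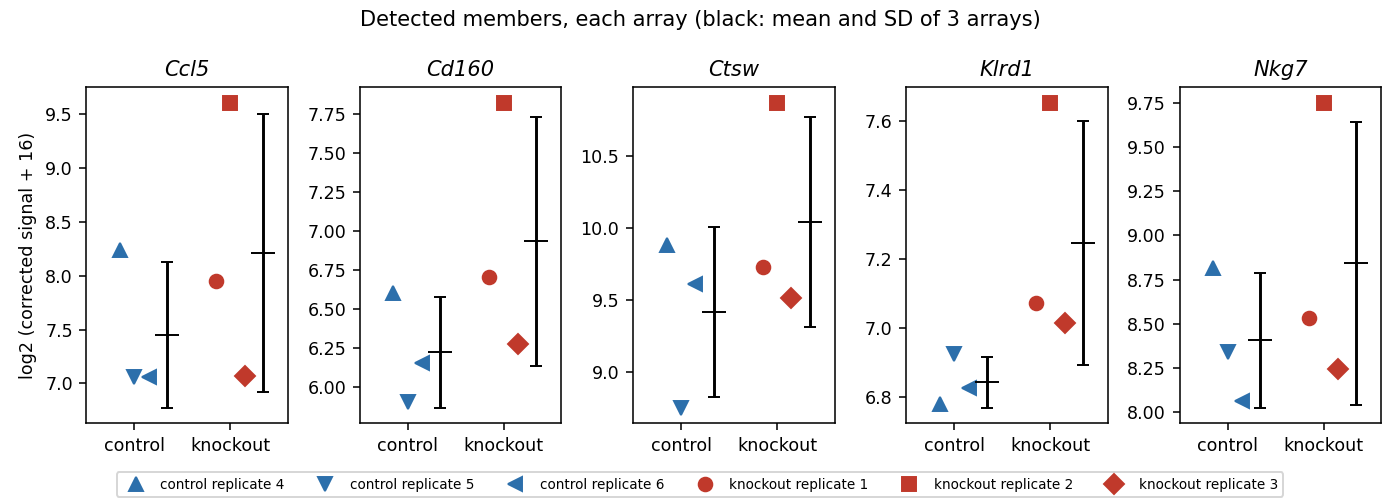
Log2 of the background-corrected, quantile-equalized signal plus 16 (vertical axes, a separate range for each gene) of the 5 detected members on each of the 3 control (blue) and 3 knockout (red) arrays, with the mean and SD of each group in black. Knockout replicate 2 (square) is the highest array in every panel, and the groups are fully apart for Klrd1 alone.

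**Figure D3:**
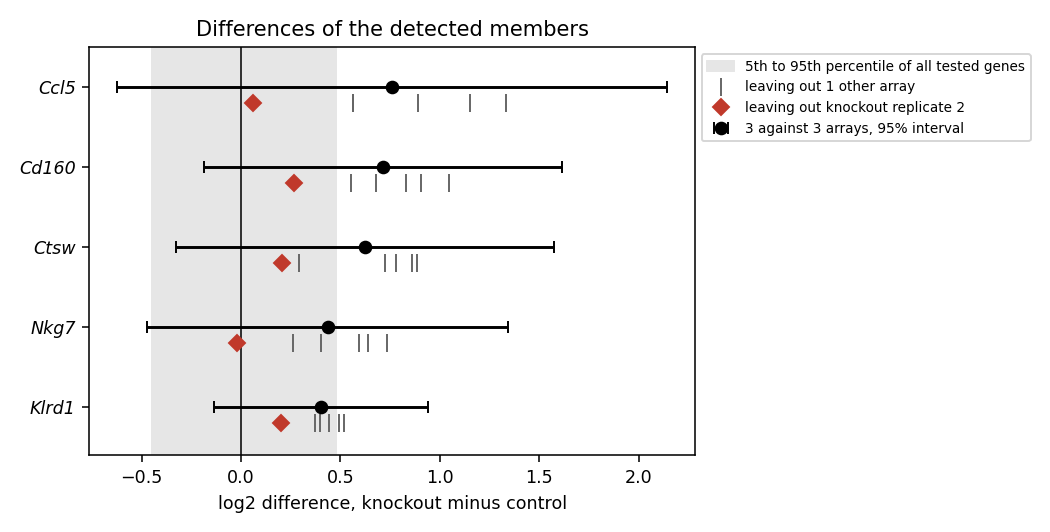
Log2 difference (knockout minus control) of the 5 detected members with its 95% interval from limma (black), and the difference when 1 array is left out (ticks; red diamond for knockout replicate 2). Every interval spans 0, the diamonds lie between -0.02 and 0.27, and the grey band is the 5th to 95th percentile of all tested genes, -0.45 to 0.48.

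The interval of each detected member includes 0 and extends to a rise of 1.92-fold (Klrd1) or more, so at 3 arrays per group neither a rise of that size nor its absence was shown. Knockout replicate 2 was the highest array for 5 of 5 members, and the order of the other arrays varied: control replicate 4 was the second highest for Ccl5, Ctsw and Nkg7 and the lowest for Klrd1. Averaged over the 5 genes after centring each on its mean over the 6 arrays, knockout replicate 2 stood at 1.18 on the log2 scale, control replicate 4 at 0.10 and knockout replicate 1 at 0.04. Knockout replicate 3 stood at -0.34, control replicate 6 at -0.42 and control replicate 5 at -0.57. In that average the knockout and control arrays other than knockout replicate 2 were interleaved.

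The header of the signal table gives each array a number, and neighbouring numbers join knockout replicate 1 with control replicate 4, 2 with 5, and 3 with 6. Within the pair of knockout replicate 2, the log2 difference was 2.55 for Ccl5, 2.12 for Ctsw, 1.92 for Cd160, 1.41 for Nkg7 and 0.73 for Klrd1. Within the pair of knockout replicate 1 it was -0.28 for Ccl5, -0.15 for Ctsw, 0.10 for Cd160, -0.29 for Nkg7 and 0.29 for Klrd1. Within the pair of knockout replicate 3 it was 0.01 for Ccl5, -0.10 for Ctsw, 0.12 for Cd160, 0.18 for Nkg7 and 0.19 for Klrd1. Cd160 and Klrd1 were therefore higher on the knockout array of all 3 inferred pairs, and Ccl5, Ctsw and Nkg7 were not. For Cd160 the margin was only 0.10 and 0.12 in the pairs of knockout replicates 1 and 3. The share of all genes higher in all 3 pairs was not taken. With these pairs as a block, chosen after seeing the header, 2 probes of all tested passed in place of 4, and 0 member probes passed.

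Promoters from the RefSeq table of assembly GRCm38.p6, which holds 250 bases before and 50 after a start, matched 6 of the 10 members with 7 promoters. The 6 were Cd160, Eomes, Gzma, Gzmb, Nkg7 and Tbx21. The detected members Klrd1, Ccl5 and Ctsw, and also Il2rb, had no promoter there and were not searched. Promoters of the detected members Nkg7 and Cd160 are shown because they hold letters of T-box, RUNX or STAT factors. Capitals mark the T-box letters GGTGTGA, the RUNX letters TGTGGT and the STAT letters TTCNNNGAA, searched on both strands. The STAT letters read alike on both strands. None of the marked runs overlaps another. RUNX factors and STAT5, which acts below the receptors of interleukins 2 and 15, are known regulators of cytotoxic lymphocytes.
Nkg7, chr7:43436888-43437187, plus strand: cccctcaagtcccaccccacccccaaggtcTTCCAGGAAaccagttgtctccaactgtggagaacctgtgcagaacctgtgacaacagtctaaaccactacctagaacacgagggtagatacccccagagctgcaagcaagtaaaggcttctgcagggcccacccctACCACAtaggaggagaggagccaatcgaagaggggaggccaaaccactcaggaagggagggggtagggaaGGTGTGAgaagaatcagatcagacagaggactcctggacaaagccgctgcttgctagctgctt
Cd160, chr3:96814472-96814771, minus strand: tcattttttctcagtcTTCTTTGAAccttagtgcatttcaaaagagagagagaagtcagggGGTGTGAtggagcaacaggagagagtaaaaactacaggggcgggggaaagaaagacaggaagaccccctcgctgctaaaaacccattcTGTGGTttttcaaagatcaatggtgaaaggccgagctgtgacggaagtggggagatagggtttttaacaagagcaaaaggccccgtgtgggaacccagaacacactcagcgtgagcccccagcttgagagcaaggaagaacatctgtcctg
Cd160, chr3:96829302-96829601, minus strand: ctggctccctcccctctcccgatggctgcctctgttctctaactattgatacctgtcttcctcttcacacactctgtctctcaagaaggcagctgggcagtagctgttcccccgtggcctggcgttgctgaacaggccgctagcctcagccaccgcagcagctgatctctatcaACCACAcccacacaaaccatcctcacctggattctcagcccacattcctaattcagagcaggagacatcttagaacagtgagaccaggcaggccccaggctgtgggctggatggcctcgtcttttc

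The Nkg7 promoter and 1 of the 2 Cd160 promoters held all 3 sets of letters. In Nkg7 the T-box letters began 13 bases before the start, and in Cd160 they began 189 bases before it. T-box letters occurred in 2 of the 7 member promoters and in 3.98% of all 32851 promoters. RUNX letters occurred in 5 member promoters, those of Cd160, Nkg7, Gzma and Gzmb, and in 16.8% of all. STAT letters occurred in 3 member promoters, those of Cd160, Nkg7 and Gzmb, and in 8.3% of all. The promoters of Eomes and Tbx21 held none of these letters in this window. A match is a description of the letters, and binding was not measured. Gzmb carries RUNX and STAT letters and was detected on 0 arrays, while Nkg7 was detected on all.

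The signalling axis that Il2rb belongs to had a median difference close to that of all genes. Of its 12 listed genes 7 were tested, 5 were higher in the knockout and 2 lower, 0 passed, and the median log2 difference was 0.01, or -0.03 without knockout replicate 2. Cish, a feedback inhibitor induced by STAT5, differed by 0.59 ± 0.34 (SE, n = 3 per group), and Bcl2, a survival gene, by 0.32 ± 0.24, with its other 5 tested probes between -0.03 and 0.41. Jak3, the kinase bound to the common gamma chain, differed by -0.38 ± 0.21, with groups that did not overlap, and its other probe by -0.31. Il15, the gene of the cytokine itself, and Stat5b were detected on 0 arrays.

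Other transcription factors of innate-like and cytotoxic lymphocytes had 10 tested genes, 6 higher and 4 lower, 0 past the threshold, with a median of 0.30, or of 0.19 without knockout replicate 2. Klf2, a factor of T cell egress and quiescence, differed by 0.67 ± 0.32 and by 0.39 without knockout replicate 2. Id2, an inhibitor of E proteins that NK cells need, differed by 0.57 ± 0.38 on its brightest probe, by 0.12 without knockout replicate 2, and by -0.16 on its other tested probe. Irf8, a factor of dendritic cells, B cells and NK cells, differed by 0.49 ± 0.24. Zbtb16, which encodes PLZF, the defining factor of invariant NKT cells, was detected on 0 arrays, as were Runx3 and Prdm1.

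The 2 largest differences among NK lectin receptor and adaptor genes were those of the adaptor genes Hcst and Tyrobp, and neither passed. Of 39 listed genes with a probe, 23 were detected on 0 arrays. Among them were Klrc1, Klrc2 and Klrc3, the NKG2 partners of CD94, and also Klrk1, Klrb1c, Klre1 and Ncr1. The share of undetected features over the array, 61.2%, counts single probes and not genes, so it is no like measure. Of the 13 tested, 10 were higher and 3 lower, 0 passed, and the median was 0.23. Without knockout replicate 2 it was 0.36, with 11 higher, a move opposite to that of the members' median. Hcst, the gene of the adaptor DAP10, differed by 1.08 ± 0.36, from log2 signals of 10.23, 9.56 and 9.34 in control replicates 4, 5 and 6 to 10.10, 11.37 and 10.90 in knockout replicates 1, 2 and 3. Its groups overlapped, since control replicate 4 lay above knockout replicate 1. Tyrobp, the gene of the adaptor DAP12, which myeloid cells also use, differed by 0.79 ± 0.45, and by 0.36 without knockout replicate 2, and was detected on 2 of the 3 control arrays. Clec2d, a lectin gene whose product is a ligand of the receptor Nkrp1, differed by 0.67 ± 0.30.

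Genes of the granule and its regulators had 15 tested members, 12 higher and 3 lower, 0 past the threshold, with a median of 0.21, or of 0.12 without knockout replicate 2. Prf1, the gene of perforin, which lets granzymes into a target cell, was detected on all 6 arrays and differed by 0.08 ± 0.23. Of the other granzyme genes, Gzmc, Gzmd, Gzme, Gzmf, Gzmg, Gzmk and Gzmn were detected on 0 arrays, and Gzmm differed by -0.05. Srgn, the gene of serglycin, the proteoglycan that holds granzymes in the granule, differed by 0.70 ± 0.23. Its groups did not overlap, with 9.29, 9.86 and 9.65 in knockout replicates 1, 2 and 3 and 8.98, 9.04 and 8.67 in control replicates 4, 5 and 6 (limma adjusted p = 0.998), and its other tested probe differed by 0.55. The lysosomal protease genes Ctsh and Ctsd, which macrophages also express, differed by 0.85 ± 0.37 and 0.77 ± 0.22, and the other tested Ctsh probe by 0.57. Ctsd was detected on 3 knockout arrays and 1 control array, so its control level was measured on that array alone. Cst7, the gene of cystatin F, an inhibitor of cysteine proteases in cytotoxic cells, differed by 0.55, and by 0.07 without knockout replicate 2. It was named after its values were seen.

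Chemokine and cytokine receptor genes of these cells had 9 tested members, 7 higher and 2 lower, 0 past the threshold, with a median of 0.66, and of 0.44 without knockout replicate 2. Il18r1, the gene of a receptor chain for interleukin 18, was detected on 3 knockout arrays and 1 control array. It had log2 signals of 7.09, 6.82 and 7.58 in knockout replicates 1, 2 and 3 and of 5.44, 5.35 and 5.99 in control replicates 4, 5 and 6. The groups did not overlap, and its difference of 1.57 ± 0.28, which rests on control values not above the detection limit on 2 of 3 arrays, did not pass (limma adjusted p = 0.401). It was 1.74 without knockout replicate 2. Both other Il18r1 probes were detected on 0 arrays. Ccl4, a chemokine gene of the same class as Ccl5, was 2.01-fold higher in the mean without passing the test, and its log2 difference was 0.69 without knockout replicate 2, with 0.58 on its other tested probe. Cxcl16, the gene of the ligand of Cxcr6, was detected on 3 knockout arrays and 1 control array and differed by 0.75 ± 0.29. Ccl9, a chemokine gene of myeloid cells, was detected on 3 knockout and 0 control arrays, with a mean at least 1.28-fold that of the controls, which did not pass (limma adjusted p = 0.998). Ifng, the gene of interferon gamma, was detected on 0 arrays.

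**Figure D4:**
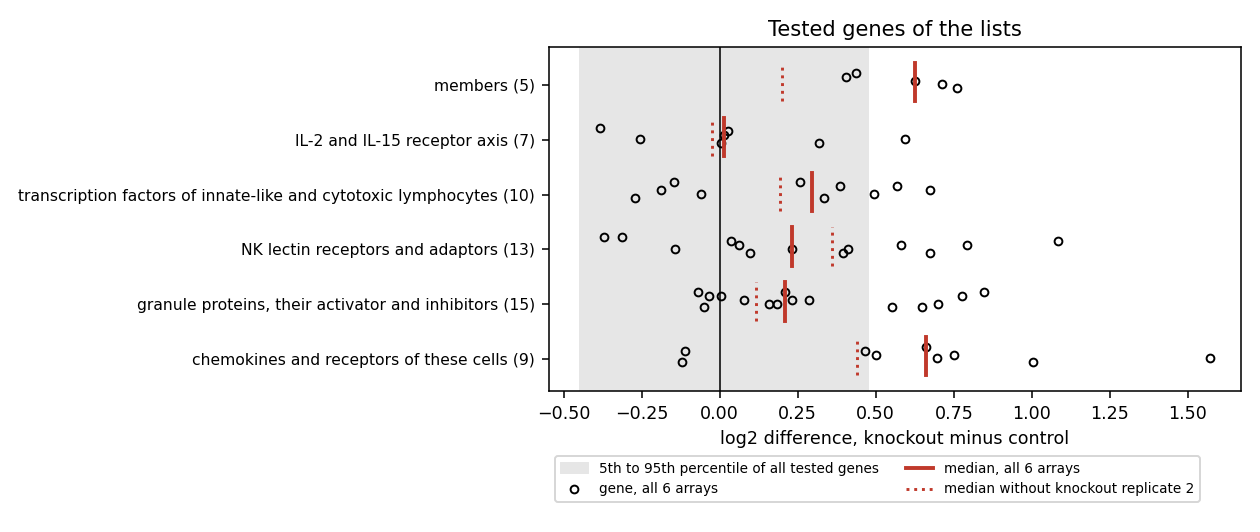
Log2 difference (knockout minus control) of every tested gene of the members and of the 5 related lists (open circles; number of genes in brackets), with the median over all 6 arrays (solid red) and without knockout replicate 2 (dotted red). The grey band spans the 5th to 95th percentile of all tested genes, and the members' median moves from 0.62 to 0.20.

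Of the 10 NK markers listed, 3 were detected (Prf1, Fcer1g and Tyrobp), which T cells or myeloid cells also express, and 7 were not (Ncr1, Klrb1c, Klre1, Klra8, Klri2, S1pr5 and Itga2). The summed corrected signal of the 3 tested markers ran from 1268 to 1663 in the knockout and from 1111 to 1646 in the controls, so the groups overlapped. The sum was weighted towards Prf1, whose mean log2 signal on the knockout arrays was 10.37, against 6.59 for Tyrobp and 6.38 for Fcer1g. Of the 6 markers of invariant NKT-like cells 5 were detected, Zbtb16 was not, and the sum of the 4 tested ran from 694.4 to 993.8 in the knockout and from 736.8 to 842.3 in the controls. Of the gamma-delta T cell list 6 genes had a probe, 5 were detected and Il23r was not. The sum of its 4 tested genes ran from 4058 to 4268 in the knockout and from 3183 to 3493 in the controls. This list includes Blk, which B cells also express, and Tespa1, matched through an older clone name and a gene of thymocytes in general. On the knockout arrays the mean log2 signal was 11.44 for Tespa1, against 7.68 for Cd163l1 and 6.59 for Blk. The list's sum was therefore weighted towards Tespa1, and it does not measure gamma-delta T cells alone. By gene, the log2 difference was 0.31 for Tespa1, 0.83 for Blk, 0.62 for Cd163l1 and 0.19 for Trgv4, and none passed.

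Some marker lists were, like the members, highest on knockout replicate 2, and their part in the differences was not tested. These were the lists of mature single-positive thymocytes, MHC class II, macrophages and B cells. The invariant NKT-like and gamma-delta T cell lists were also highest there, at 0.41 and 0.39 after centring. The members' mean stood at -0.34 on knockout replicate 3 and at 0.10 on control replicate 4, and not all lists followed it. On the same arrays the macrophage list stood at -0.19 and 0.26, and the mature single-positive thymocyte list at -0.05 and 0.03. The MHC class II list stood at 0.39 and -0.32 there, and the B cell list at -0.01 and -0.12. The invariant NKT-like list stood at 0.25 and -0.21, and the gamma-delta T cell list at 0.19 and -0.25. The neutrophil list was highest on control replicate 4 and the cell cycle list on control replicate 5. For the mature single-positive thymocyte list, 5 of the 8 genes with a probe were detected, S1pr1, Ms4a4b and Gimap4 were not, 5 of 5 tested genes were higher, and knockout replicate 2 was the highest array for all 5. Its sum ran from 1806 to 3209 in the knockout and from 1146 to 1939 in the controls. For dendritic cells and MHC class II, 8 of 11 genes were detected, Itgax, Flt3 and Xcr1 were not, 7 of 8 tested genes were higher, and the sum ran from 7671 to 13927 in the knockout and from 4385 to 5633 in the controls. For macrophages, 6 of 8 were detected, Adgre1 and Mertk were not, 5 of 5 tested were higher, and the sum ran from 758.6 to 1666 against 557.0 to 1065. For B cells, 4 of 7 were detected, Ms4a1, Pax5 and Cd22 were not, 2 of 3 tested were higher, and the sum ran from 781.7 to 1337 against 568.8 to 814.6. For neutrophils, all 7 genes were detected, 0 of 6 tested genes were higher, and the sum ran from 836.2 to 3009 against 1585 to 4189. Cell cycle genes were lower for 5 of 5, with sums from 9810 to 13755 in the knockout and from 17050 to 20428 in the controls. The developing thymocyte list had 6 of 10 genes higher, with sums from 113913 to 137203 against 123250 to 126999, and its lowest array was knockout replicate 2. Of all marker genes, 0 passed the threshold.

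**Figure D5:**
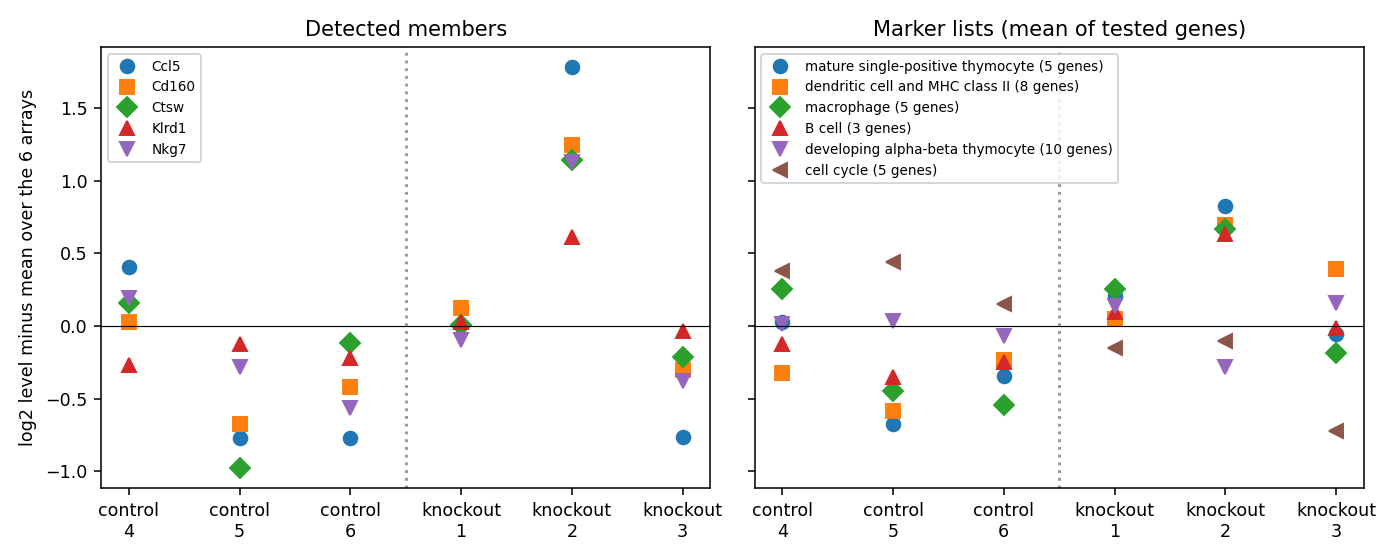
Log2 level minus its mean over the 6 arrays for each detected member (left) and for the mean of the tested genes of 6 marker lists (right), by array. Knockout replicate 2 is the highest array for all 5 members (0.61 to 1.78), and the mature single-positive (0.83), MHC class II (0.69), macrophage (0.67) and B cell (0.63) lists are also highest there, while the developing thymocyte list is lowest there (-0.28).

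The genes whose pattern over the 6 arrays was most like the members' mean were sought among 3886 tested genes with a standard deviation of at least 0.3. The 5 with the highest Pearson r were Nlrc5 (0.9935), Eci1 (0.9898), Rgs19 (0.9837), Gpr18 (0.9836) and H2-Q8 (0.9802). Nlrc5 encodes the transactivator of MHC class I genes, H2-Q8 an MHC class I protein, Gpr18 a G protein-coupled receptor, Rgs19 a regulator of G protein signalling and Eci1 a mitochondrial enzyme of fatty acid oxidation. Each was highest on knockout replicate 2, and r exceeded 0.9 for 3.17% of the genes searched. With 6 points, of which 1 stands apart, these values are a description and carry no test. The difference between groups was 0.53 for Nlrc5, 0.61 for Eci1, 0.32 for Rgs19, 0.83 for Gpr18 and 0.68 for H2-Q8, and none passed (limma adjusted p = 0.998 for each). Without knockout replicate 2 it was 0.07 for Nlrc5, 0.17 for Eci1, 0.08 for Rgs19, 0.36 for Gpr18 and 0.09 for H2-Q8.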

How the data were processed

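The main values were the deposited, non-normalized intensity of each probe on a linear scale, beside a detection p-value, per the file headers. BeadStudio 3.1.3 is the tool listed in the submitters' processing notes, and its settings are not stated there. A second table, the authors' deposited values, holds background-subtracted, equalized intensity values of the same arrays, judged from the values, and served as an alternative.

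With limma 3.58.1 in R 4.3.3, neqc corrected the background from the detection p-values, equalized quantiles and took log2 after adding 16, which understates changes of dim probes. Probes detected (p under 0.01) on at least 3 of 6 arrays were tested with lmFit and eBayes, tested on simulated data first, knockout against control, two-sided, without covariates. P-values were adjusted by Benjamini-Hochberg over all 14651 tested probes, at 0.05. A gene was represented by its brightest tested probe. The median standard error was 0.26, and the number of arrays limits the precision. An "at least" fold sets the bright group's mean against the higher of the probe's value and the lowest detected value on each dim array. Summed signals are of corrected signals.

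Probe names came from the platform annotation, updated by gene number. Of all probes, 34885 had 1 symbol, 18 several and 10378 none. Named were all members, and of each related list the 3 largest differences and any gene past the threshold or detected in 1 group alone. The members and lists were chosen with earlier results of these data known. Deviations from group means correlated by 0.128, 0.164 and 0.518 within the pairs of neighbouring header numbers, and by up to 0.317 in other combinations, so pairs are inferred and not stated. Where animals or arrays are not labelled as such, p-values measure the spread between these samples. Scaling, filters, priors, weights, offsets, blocks and single arrays were varied.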

Additional observations from a re-analysis of the deposited data

How the results depend on the processing

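No paired analysis was possible because the labels give the groups no shared replicate number, other than by the inferred pairs, whose block changed no member's call. The count of member probes past the threshold was 0 under all 18 alternatives that give it. Member probes with an unadjusted limma p under 0.05 numbered 2 under median scaling, 2 without knockout replicate 3 and 1 in the first series alone. They numbered 0 under the other alternatives. For the settings with a count above 0, the share of all probes with such a p was not taken, so these counts show no stronger difference. The members' median was 0.20 to 0.99 over its 19 alternatives, lowest without knockout replicate 2 and highest with the first series of header numbers alone, and 0.20 to 0.89 over the alternatives that leave out 1 array. It was 0.35 without background correction, with Cd160 at 0.35 and Klrd1 at 0.22. With array weights Nkg7 was at 0.21 and Klrd1 at 0.26. The only reversal among members was Nkg7, which ran from -0.019 without knockout replicate 2 to 0.735 without knockout replicate 3. Adjusted p-values of the 5 members were 0.894 or more under every alternative. The number of members whose groups do not overlap was 1, with 0 under median scaling, 2 in the first series alone, and 1 to 3 without 1 array, where 3 came without control replicate 4. Groups of fewer arrays separate more easily. The share over all genes was not taken for those settings, so the higher counts show no stronger difference. Probes past the threshold numbered 4, and 2 without background correction, 1 with no filter on dim probes, 8 with median scaling, 2 with the pair block, 0 in the first series alone, and 0 to 1 without 1 array. Median scaling moved the median of all genes from -0.01 to 0.12, so that relative to it the members' 0.77 is close to the main value; that median also changed sign with array weights (0.0075), and without 1 array it ran from -0.022 to 0.018, above 0 without knockout replicate 2 or 3 (0.0034) or control replicate 4 (0.00085). The causes were not tested. With no filter, Eomes was at -0.16, Gzmb at -0.13, Il2rb at 0.21 and Tbx21 at -0.34, all at background, where signals limit any reading.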
